A study of Mus musculus with 300 samples.

Results

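The hearts described here came from mice dosed by mouth with GW501516, an agonist of the nuclear receptor PPAR-delta, and were set against hearts of vehicle-dosed mice taken on the same day. They were chosen by their labels: all hearts labelled GW501516 at 10 mg/kg on days 4, 8 and 15 (5 on each day, 15 in all) and all vehicle hearts of those days (10 on each day, 30 in all), which gives 45 of the 300 arrays of the series. The other hearts (15 dosed with rosiglitazone, an agonist of PPAR-gamma, and 15 dosed with WY14643, an agonist of PPAR-alpha, both at 10 mg/kg and on the same days) bring the fit to 75 hearts. Each array holds the RNA of 1 mouse on an Affymetrix Mouse Genome 430 2.0 chip, so the replicates are animals. Strain, sex, age, the make-up of the vehicle and the hour at which hearts were taken are not given in the sources used here.

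PPAR-delta binds DNA with its partner RXR and is expressed in many tissues, heart and skeletal muscle included. Fatty acids released from lipoproteins activate it, and its known targets carry fatty acids into mitochondria, coat lipid droplets, spare glucose or inhibit lipoprotein lipase. The heart burns mostly fatty acids, so much of this machinery is already highly expressed there. Heart muscle also runs a circadian clock, in which ARNTL and CLOCK drive the Per and Cry genes that repress them.

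Values are log2 intensities, so a difference of 1 is a doubling, and every change is GW501516 minus vehicle of the same day, given as the mean of the 3 daily differences with its standard error where no day is stated. A gene rose or fell where limma gave an adjusted p under 0.05 over 18193 genes. Between GW501516 and vehicle hearts 759 of them differed (4.17%), of which 335 rose (1.84%) and 424 fell (2.33%), and the median change of all genes was -0.0094. Most changes were small: 38 genes (0.209%) passed with a change of at least 1.5-fold.

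The hearts were heart by their markers. The cardiomyocyte genes Myh6, Myl2, Actc1, Tnni3, Tnnt2, Ryr2, Mb, Ckm and Pln stood at or above the 96.3 percentile of all genes in vehicle hearts, and their mean ran over 14.34 to 14.41 in GW501516 hearts and 14.35 to 14.41 in vehicle hearts. Other tissues contributed unevenly. Hepatocyte markers, 10 genes led by Alb, averaged 6.08 to 11.73 in GW501516 hearts (median 9.09) and 6.13 to 12.12 in vehicle hearts (median 9.62), and 7 atrial markers 7.38 to 12.12 (median 10.27) against 7.26 to 11.89 (median 9.25); 0 genes of either list passed the test, and at an unadjusted p under 0.05 1 hepatocyte gene was lower. GW501516 replicate 1 of day 15 stood apart with a white adipocyte mean of 11.29 and a brown adipocyte mean of 10.20, where vehicle hearts reached 8.90 and 8.09. In whole tissue, fewer cells of a type and less RNA per cell cannot be told apart.

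Short promoter stretches are printed for members of the clock, glucocorticoid-inducible and immediate early lists described further on, each of which had called members. The lists of PPAR targets and chaperones, which also had called members, were searched too, and none of their stretches is printed. Windows reach up to 250 bases before a gene's start and come from RefSeq (build GRCm38.p6, 5′ to 3′ on the gene's strand). Capitals mark a match, searched on both strands: the E-box CACGTG that CLOCK and ARNTL bind, the D-box TTANGTAA of DBP, TEF and HLF, the palindrome (GNACA, 3 free bases, TGTNC) of the kind the glucocorticoid receptor binds, the serum response element (CCATAT, any base, AGG) and the cAMP response element TGACGTCA. Among 32851 such windows these letters were found in 6.02%, 2.06%, 0.387%, 0.167% and 1.55%. The genes shown were picked because their window holds a match, and a match is a description of letters, not of binding. A direct repeat of the kind PPAR and RXR bind lay in 0 of 29 PPAR targets and 1 of 17 clock genes. It is rare (0.338% of windows), so its absence from a list of that size tells little. The heat shock element lay in 2 of 24 chaperone genes, neither called, and the ROR and REV-ERB core in 1 of 17 clock genes. Windows of the called genes Cpt1a, Arntl, Dnajb1 and Fos held no match. The stretches lie at chr4:151044796-151044890 for Per3, chr3:95882247-95882364 for Ciart, chr10:85185089-85185134 for Cry1, chr14:8309865-8309917 for Fam107a, chr8:94178975-94179027 for Mt1, chr1:134079294-134079341 for Btg2 and chr19:53529053-53529102 for Dusp5. Per3, Ciart, Cry1, Fam107a and Btg2 lie on the minus strand, Mt1 and Dusp5 on the plus strand, and all 7 stretches lie before the gene's start.
Per3: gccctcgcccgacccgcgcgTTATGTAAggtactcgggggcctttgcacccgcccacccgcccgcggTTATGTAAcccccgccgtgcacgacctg
Ciart: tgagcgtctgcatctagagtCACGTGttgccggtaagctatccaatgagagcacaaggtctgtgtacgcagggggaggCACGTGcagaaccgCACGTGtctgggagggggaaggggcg
Cry1: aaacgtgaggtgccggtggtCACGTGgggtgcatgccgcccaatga
Fam107a: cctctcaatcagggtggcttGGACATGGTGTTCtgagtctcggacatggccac
Mt1: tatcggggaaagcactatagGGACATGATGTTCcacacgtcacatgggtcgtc
Btg2: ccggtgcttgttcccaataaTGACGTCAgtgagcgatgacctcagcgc
Dusp5: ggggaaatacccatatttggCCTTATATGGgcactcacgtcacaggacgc

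Among known PPAR targets, 9 of 35 measured genes rose and 0 fell, with a list median of 0.065. Of all genes 1.84% rose and 2.33% fell, the shares beside which this and the later list counts stand. Angptl4, a secreted inhibitor of lipoprotein lipase, was higher in every treated heart. On day 4 the 5 GW501516 hearts read 10.91, 10.43, 10.03, 10.62 and 10.21 for Angptl4, and the 10 vehicle hearts had a lowest value of 7.23, a median of 7.95 and a highest of 9.23. On day 8 the GW501516 hearts read 9.83, 9.57, 10.07, 10.24 and 9.67 against 7.54, 8.30 and 9.02, and on day 15 they read 10.56, 10.01, 10.34, 10.26 and 9.88 against 7.55, 8.29 and 9.60. On no day did the groups overlap for Angptl4. The difference was 2.38 on day 4, 1.56 on day 8 and 1.75 on day 15, and 1.90 ± 0.20 over the days (adjusted p = 6.21e-10, 15 of 15 hearts above the vehicle mean of their day). A second Angptl4 probe set rose by 1.10.

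Cpt1a, which couples fatty acids to carnitine at the outer mitochondrial membrane, rose by less. Its GW501516 hearts read 10.70, 10.62, 10.47, 10.59 and 10.43 on day 4, above vehicle hearts at 9.64, 9.87 and 10.31 (lowest, median and highest). On day 8 they read 10.16, 10.41, 10.56, 10.49 and 10.28 against 9.73, 9.98 and 10.23, and on day 15 10.16, 10.33, 10.37, 10.46 and 10.18 against 9.56, 9.92 and 10.32. The groups were apart on day 4, overlapped by 1 GW501516 heart on day 8 and by 2 on day 15. The Cpt1a change over the days was 0.49 ± 0.05 (adjusted p = 9.41e-10, 15 of 15 hearts), and 2 other probe sets rose by 0.53 and 0.54.

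The remaining targets that rose belong to lipid storage and to mitochondrial or glucose control. The droplet coat genes Plin2 (0.40 ± 0.05) and Plin4 (0.39 ± 0.08) were higher in 15 of 15 hearts, whereas the oxidative-tissue coat gene Plin5 stood at -0.09 ± 0.05 (adjusted p = 0.307). Txnip, which limits glucose uptake, rose by 0.30 ± 0.05, the monoglyceride lipase gene Mgll by 0.17 ± 0.05 and the fatty acid carrier gene Fabp4 by 0.08 ± 0.02. Larger rises came from the other Txnip probe set (0.61) and from the 3 other Fabp4 probe sets (0.10 to 0.58), all called. Of the 3 other Mgll probe sets, which ran from -0.04 to 0.21, 2 were called higher. Ucp3, an inner membrane carrier raised by fatty acids, rose by 0.52 ± 0.14 in 10 of 15 hearts, and its day effects were 1.27, 0.31 and -0.03 on days 4, 8 and 15. Its call ended with its other probe set, which is the brighter of the pair in heart (0.55). With the first 2 components of the clock genes as covariates 6 of the 9 targets still passed, all but Cyp4a14 (1.60), Plin4 (0.14) and Ucp3 (0.43). Clock genes themselves differed between GW501516 and vehicle hearts, so this fit also takes up part of the treatment difference. Over the 759 called genes its median standard error was 0.077, against 0.054 in the main fit. The median size of change was 0.14 against 0.22. A call lost in it therefore does not tell a smaller change from a wider error.

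Pdk4, the kinase that shuts pyruvate dehydrogenase and a standard PPAR-delta target in muscle, did not pass. Its GW501516 hearts read 14.42, 14.32, 14.43, 14.56 and 14.21 on day 4, 13.91, 14.17, 14.19, 14.31 and 13.86 on day 8, and 14.07, 14.01, 13.91, 14.01 and 14.12 on day 15. Vehicle hearts lay at 13.89, 14.14 and 14.29 on day 4, 13.99, 14.14 and 14.33 on day 8, and 13.74, 14.08 and 14.35 on day 15. On day 4 4 of 5 treated hearts exceeded every vehicle heart, on day 8 2 of 5 lay below every vehicle heart, and on day 15 all 5 lay inside the vehicle range. The change was 0.07 ± 0.05 (95% interval -0.04 to 0.17; adjusted p = 0.643), with 0.29 on day 4, and its sign turned without day 4 (-0.05).

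Pdk4 sat near the top of the scale, whose highest value in any heart was 15.03. Of the 35 targets 13 had a vehicle level over 13, a bound chosen after the values were seen. These 13 changed by -0.03 to 0.30 and 2 of them passed (Txnip and Fabp4), against 7 of the 22 targets at or under 13, which ranged from -0.09 to 2.04. Among the bright genes were Cd36, the fatty acid translocase (13.40; change 0.03 ± 0.02), and Acadm and Acadl, the medium and long chain dehydrogenases (13.7 and 14.1; -0.03 and 0.02). Whether high intensities compress changes on this chip was not tested.

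**Figure D1:**
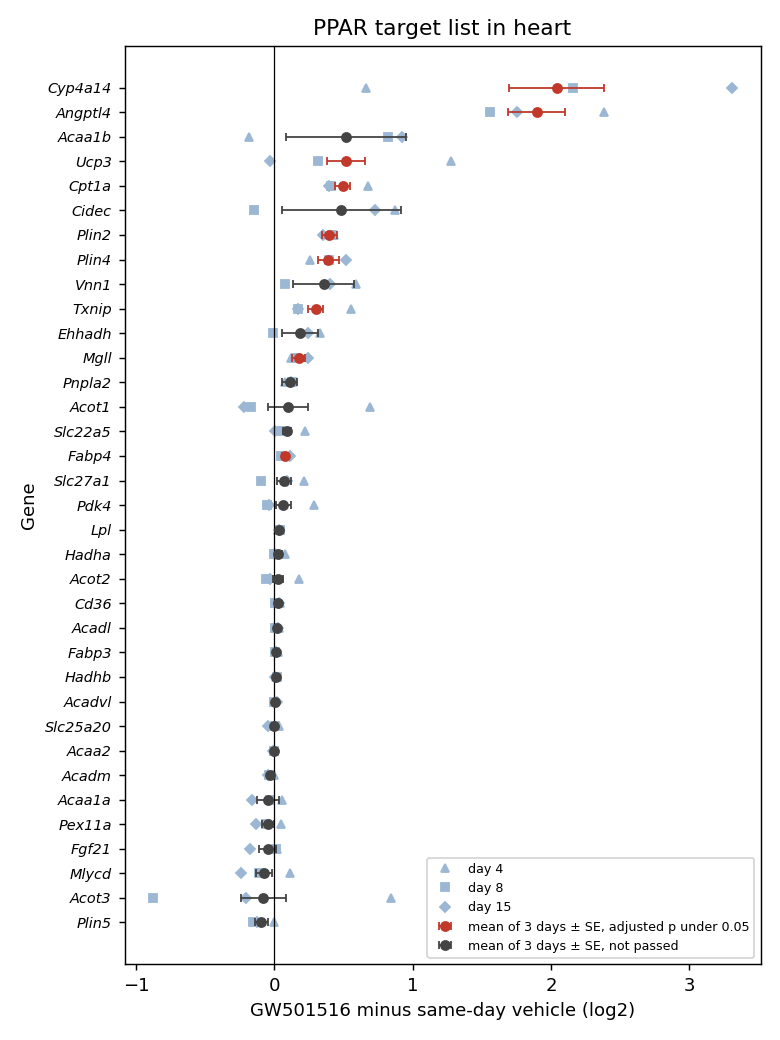
Change of the 35 measured PPAR targets in heart (x axis, GW501516 minus same-day vehicle, log2; y axis, genes). Circles with bars are the mean over 3 days ± SE, red where the adjusted p was under 0.05 (9 genes, all higher); triangles, squares and diamonds are days 4, 8 and 15. Cyp4a14 and Angptl4 stand out at 2.04 and 1.90, and Ucp3 spans 1.27 on day 4 to -0.03 on day 15.

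Other lipid and energy genes mostly did not pass. Among 26 lipid droplet and lipolysis genes 6 rose and 1 fell (median 0.062): besides Plin2, Plin4 and Mgll these were Lipe, the hormone-sensitive lipase (0.45 ± 0.12), Dgat2, which makes triglyceride (0.18 ± 0.03), and Gpam (0.10 ± 0.03), while G0s2, an inhibitor of adipose triglyceride lipase, fell (-0.33 ± 0.09) and was lower in 15 of 15 hearts. Of 28 mitochondrial fatty acid oxidation genes and 16 carnitine shuttle genes 1 each rose, and of 22 uptake genes 2 rose and 1 fell. In the lists of 32 peroxisomal, 48 respiratory chain and 6 ketone body genes 0 passed in limma; at an unadjusted p under 0.05, which 14.7% of all genes met, there were 1 up and 2 down, 0 up and 1 down, and 0 up and 0 down. Among 33 genes of glucose use Txnip and the pyruvate dehydrogenase phosphatase gene Pdp2 (0.31 ± 0.06) rose. Lipe fell short without GW501516 replicate 1 of day 15, the heart rich in adipocyte markers (0.37, adjusted p = 0.0503), and Lipe, Gpam and G0s2 each lost their call without any 1 of the 3 days. The other Lipe probe set stood at -0.10 and was not called, and Gpam lost its call in 32 of 45 fits without 1 heart.

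Cyp4a14, a fatty acid omega-hydroxylase of liver and kidney from a family of near-identical genes, had the largest mean change (2.04 ± 0.34, 13 of 15 hearts) and the most uneven one. Its GW501516 hearts read 4.17, 5.45, 5.08, 3.98 and 4.61 on day 4, 4.01, 4.57, 6.82, 7.73 and 8.21 on day 8, and 7.25, 10.13, 4.22, 7.60 and 7.28 on day 15. Vehicle hearts stayed between 3.62 and 4.51 on all days. In the same animals and order, Alb read 5.21, 10.60, 9.34, 6.01 and 8.07 on day 4, 6.29, 8.83, 11.22, 10.96 and 13.29 on day 8, and 11.32, 13.47, 6.08, 11.78 and 11.13 on day 15. The highest Alb of each GW501516 group thus went with the highest Cyp4a14, and the 4 GW501516 hearts with Alb under 7 had Cyp4a14 at 3.98 to 4.22, inside the vehicle range, where the 4 vehicle hearts with Alb under 7 had 3.62 to 4.30.

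Within GW501516 hearts Cyp4a14 rose by 0.59 ± 0.06 for each unit of Alb (adjusted p = 3.87e-12), against 0.02 in vehicle hearts (adjusted p = 0.853). Of the genes tested Cyp4a14 was the only 1 whose slope on Alb differed between GW501516 and vehicle hearts (adjusted p = 3.33e-06). In livers of the same mice Cyp4a14 read 13.37 to 13.92 with GW501516 and 5.08 to 12.10 with vehicle. How much of the heart Cyp4a14 signal came from liver RNA was not tested.

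Over all hearts 322 genes (1.77%) had a slope on Alb. With Alb as a covariate 802 genes passed, 704 of them among the 759, and 0 of the 759 changed sign. Acaa1b, a peroxisomal thiolase gene among the PPAR targets, passed with Alb as a covariate (1.06, adjusted p = 0.00712) and not without it (0.52, adjusted p = 0.661). Without the 19 hearts with the most Alb (over 12.54, the 75th percentile; 2 GW501516 and 5 vehicle hearts) 561 passed. Angptl4 was 1.85 with the covariate and 1.95 in the hearts with less Alb, and its slope on Alb in GW501516 hearts was -0.04 ± 0.07. Alb itself stood at -1.05 ± 0.68 (adjusted p = 0.521), and its vehicle hearts ran from 6.45 to 13.46.

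**Figure D2:**
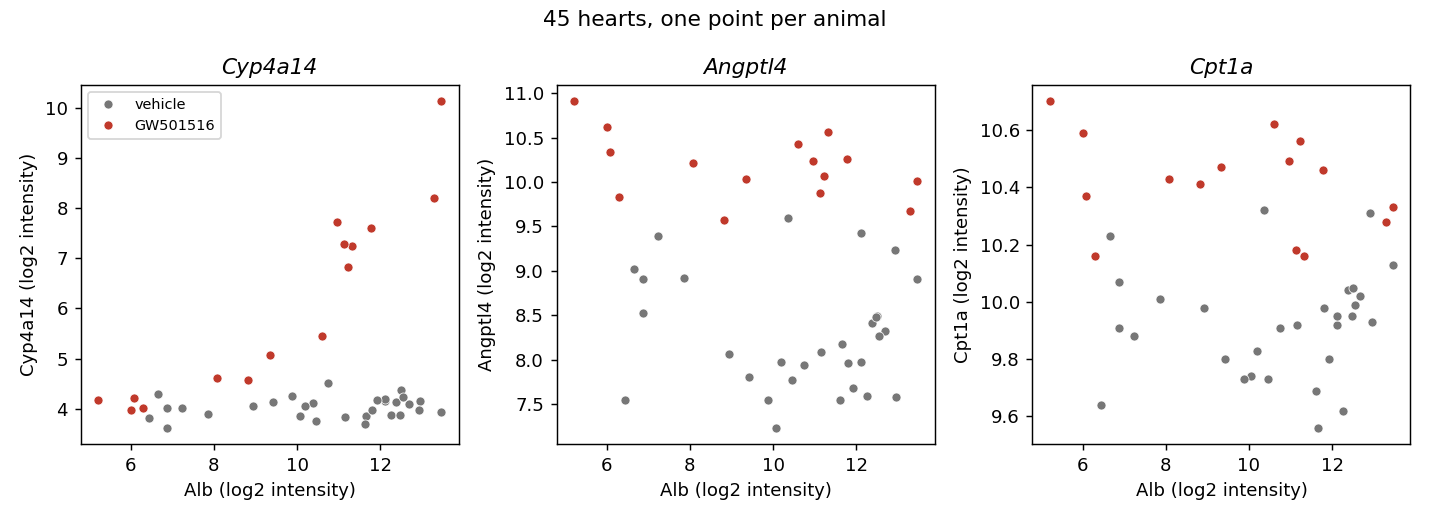
Alb (x axis) against Cyp4a14, Angptl4 and Cpt1a (y axes), all log2 intensity, 1 point for each of 45 hearts. Cyp4a14 climbs with Alb in GW501516 hearts (red; 3.98 to 10.13) and stays flat in vehicle hearts (grey; 3.62 to 4.51), while Angptl4 in GW501516 hearts (9.57 to 10.91) shows no such climb.

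Outside the PPAR targets the largest rises were of mixed function. Tcf23, a helix-loop-helix transcription factor gene, read 9.01, 8.37, 8.97, 8.38 and 8.59 on day 4, 8.90, 8.88, 8.82, 9.11 and 8.92 on day 8, and 9.02, 9.52, 9.12, 8.69 and 9.32 on day 15 with GW501516. Vehicle hearts had 7.53, 7.74 and 8.30 on day 4, 7.03, 7.34 and 7.76 on day 8, and 7.34, 7.84 and 8.11 on day 15 (lowest, median, highest). Tcf23 did not overlap between the groups on any day and changed by 1.23 ± 0.14 (adjusted p = 5.05e-09).

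Tent5b, a gene of the poly(A) polymerase-like TENT5 family, overlapped vehicle on day 4 and hardly after. With GW501516 it read 8.62, 8.31, 9.15, 9.21 and 9.36 on day 4, 9.40, 9.0, 9.45, 9.46 and 8.84 on day 8, and 9.99, 9.51, 9.51, 9.11 and 10.36 on day 15. Vehicle hearts read 7.97 to 9.44, 7.02 to 8.75 and 7.70 to 9.36 on those days, with medians of 8.56, 8.19 and 8.17. Day 8 was free of overlap, and 1 heart of day 15 lay inside the vehicle range. The change was 1.01 ± 0.16 (adjusted p = 6.11e-06), and it was not passed with the clock components as covariates (0.78).

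**Figure D3:**
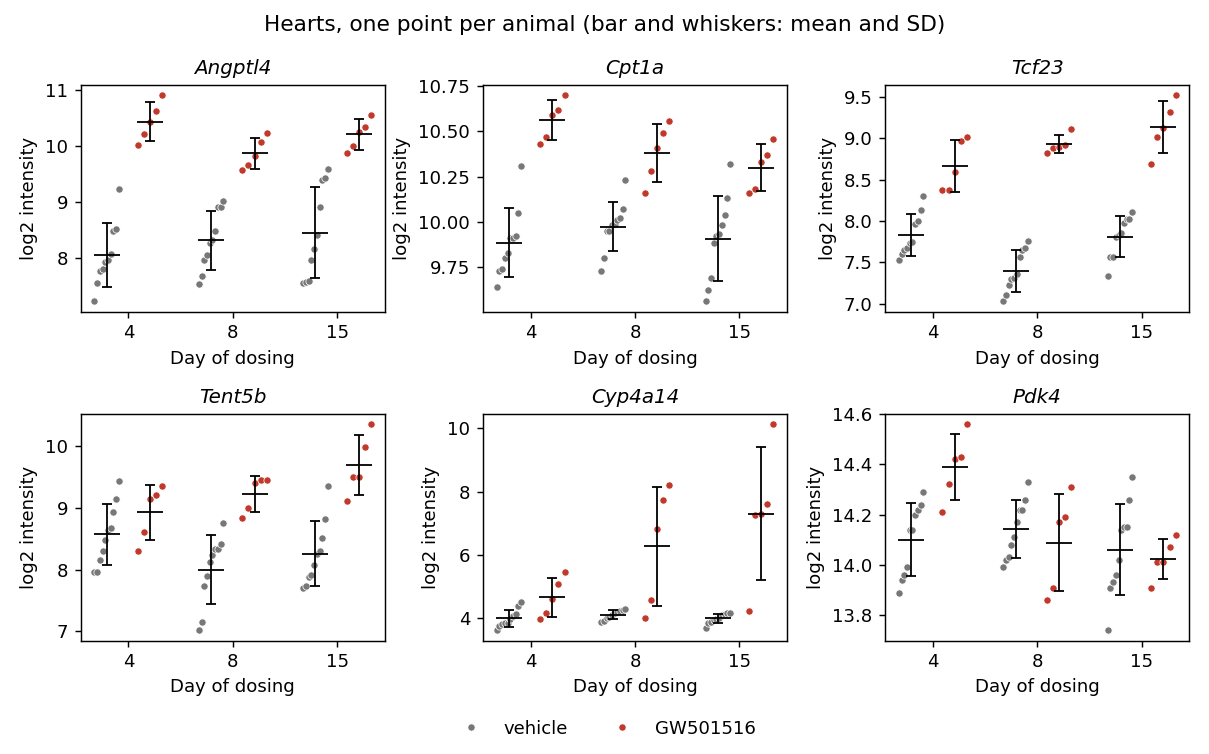
Log2 intensity (y axes) by day of dosing (x axes) for 6 genes, 1 point per heart, vehicle grey (10 a day) and GW501516 red (5 a day), with the mean and SD of each group. Angptl4 and Tcf23 separate on all days, Cpt1a separates on day 4, Cyp4a14 spreads from 3.98 to 10.13 among treated hearts, and the Pdk4 groups overlap on each day.

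Of the other large rises, Trarg1, a regulator of the insulin-responsive glucose transporter GLUT4, rose by 0.85 ± 0.15 and Mthfd1l, a mitochondrial folate enzyme gene, by 0.84 ± 0.09, both in 15 of 15 hearts. Angptl7, a secreted relative of Angptl4, rose by 0.94 ± 0.18, the retinol and alcohol dehydrogenase gene Adh1 by 0.79 ± 0.12, the chemokine receptor gene Ccr1 by 0.74 ± 0.17 and the lubricin gene Prg4 by 0.69 ± 0.17. Hmga2-ps1, a transcribed pseudogene that may share probes with Hmga2, rose on each day (0.64, 0.76 and 0.72). Angptl4, Cpt1a and Hmga2-ps1 were the 3 genes called on all 3 days. Trarg1, Mthfd1l, Ccr1 and Hmga2-ps1 still passed with the clock components as covariates, and Angptl7, Adh1 and Prg4 did not.

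Immediate early genes, which respond within minutes to stretch, stress and growth signals, were lower as a group: 17 of 33 fell and 1 rose (median -0.19). Fos read 8.28, 8.39, 9.17, 10.06 and 9.83 with GW501516 on day 4, 8.27, 8.60, 8.21, 10.61 and 9.73 on day 8, and 8.87, 8.86, 8.84, 8.75 and 9.33 on day 15. Its vehicle hearts had 9.75, 10.90 and 12.13 on day 4, 9.94, 11.24 and 12.29 on day 8, and 8.78, 9.42 and 12.46 on day 15. The groups overlapped on each day, by 2 treated hearts on day 4, by 1 on day 8 and by 4 on day 15, where the vehicle median was itself lower. Fos changed by -1.69 ± 0.26 (adjusted p = 6.11e-06) and lay below the vehicle mean of its day in 15 of 15 hearts. Taken by day, it was called on day 8 only.

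The other falls in this group covered several families. The AP-1 partners Fosl2 (-0.41 ± 0.08), Fosb (-0.49 ± 0.12), Junb (-0.32 ± 0.06) and Jun (-0.15 ± 0.04) fell, as did the zinc finger genes Egr1 (-0.48 ± 0.13) and Egr2 (-0.54 ± 0.14) and the orphan receptor gene Nr4a1 (-0.86 ± 0.20). Atf3 (-0.63 ± 0.17), Btg2, a brake on cell division (-0.63 ± 0.10), the flow-responsive gene Klf2 (-0.47 ± 0.08), the MAP kinase phosphatase genes Dusp1 (-0.23 ± 0.04) and Dusp5 (-0.47 ± 0.09) and the calcineurin regulator gene Rcan1 (-0.28 ± 0.06) fell as well. Klf10, a TGF-beta-inducible member, rose by 0.34 ± 0.06. With the clock components as covariates 11 of the called members still passed, Klf10 and Fos (-1.65) among them. Without day 8 6 members fell, and Jun lost its call in 15 of 45 fits without 1 heart. Other large falls were Trp53i11, a p53-inducible gene (-0.62 ± 0.08), Gem, a small GTPase gene that limits calcium channels (-0.61 ± 0.10), and Fam124b (-0.61 ± 0.15).

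Chaperone genes showed the same direction in fewer members: 3 of 28 fell and 0 rose (median -0.059). Dnajb1, the co-chaperone of inducible HSP70, read 10.26, 10.46, 10.67, 10.90 and 10.71 on day 4 against vehicle hearts at 10.72, 11.80 and 12.57, so that 1 treated heart lay inside the vehicle range. On day 8 it read 10.77, 10.65, 10.77, 10.85 and 10.78 against 10.78, 11.23 and 12.37, and on day 15 11.01, 11.24, 10.99, 11.21 and 10.98 against 10.95, 11.45 and 12.29. Treated hearts clustered at the low edge of a wide vehicle spread on each day, and by day Dnajb1 was called on day 4 only. Dnajb1 changed by -0.69 ± 0.13 (adjusted p = 0.000122), Dnaja1 by -0.41 ± 0.09 and Hspb3, a muscle small heat shock gene, by -0.34 ± 0.09. The inducible HSP70 genes Hspa1a (-1.29 ± 0.44, adjusted p = 0.0853) and Hspa1b (-0.99 ± 0.31, adjusted p = 0.051), whose sequences are near-identical, did not pass, but passed with Alb or the clock components as covariates, and both other Hspa1b probe sets fell (-1.40 and -1.35). Of the 3 called chaperone genes 1 passed with the replicate number as a block and 1 without day 4, and Hspb3 stood at -0.0018 with the clock components.

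Clock genes were the third group: 8 of 20 rose and 2 fell (median 0.13), and on day 4 0 passed in limma (0 up and 1 down at an unadjusted p under 0.05, which 7.1% of all genes met on that day). Arntl, the positive arm's partner of CLOCK, read 7.43, 8.04, 7.58, 6.80 and 8.13 with GW501516 on day 4, 7.58, 6.96, 7.16, 7.22 and 7.50 on day 8, and 7.78, 7.35, 6.84, 7.17 and 6.87 on day 15. Vehicle hearts had 6.53, 7.69 and 8.43 on day 4, 8.85, 9.39 and 10.54 on day 8, and 7.96, 9.22 and 9.78 on day 15. The groups overlapped wholly on day 4 and not at all on days 8 and 15. A second Arntl probe set stood at -0.06 over the days and was not called. The effects of the first were -0.05, -2.17 and -1.78, and its vehicle hearts themselves were 1.80 higher on day 8 than on day 4 (adjusted p = 8.6e-08) and 1.33 higher on day 15 than on day 4 (adjusted p = 0.000647).

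Per3, a repressor of ARNTL and CLOCK whose promoter stretch carries both D-box matches printed above, mirrored this. It read 12.22, 11.97, 12.13, 12.29 and 11.99 on day 4, 11.96, 11.99, 12.05, 11.92 and 12.01 on day 8, and 11.99, 11.91, 12.09, 11.99 and 11.92 on day 15. Vehicle hearts had 11.77, 11.95 and 12.13 on day 4, 10.14, 11.31 and 11.63 on day 8, and 10.85, 11.41 and 11.78 on day 15. Treated hearts kept within 11.91 to 12.29, and the groups were apart on days 8 and 15. Per3 changed by 0.54 ± 0.08, while vehicle hearts were lower on day 8 than on day 4 (-0.75; adjusted p = 1.76e-05).

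The repressor genes Per2 (0.87 ± 0.14), Ciart (0.74 ± 0.18), Cry1 (0.28 ± 0.05), Cry2 (0.21 ± 0.05) and Nr1d2 (0.14 ± 0.03) and the output factor genes Hlf (0.44 ± 0.07) and Tef (0.31 ± 0.05) rose, and Clock fell (-0.20 ± 0.04). The other 10 of the 20 clock genes did not pass. Among them Nr1d1, the paralog of Nr1d2, stood at -0.26 ± 0.09 and the output factor gene Dbp at 0.32 ± 0.10, both short of the threshold (adjusted p = 0.0723 and 0.0515). Among 17 members with a promoter window 5 held an E-box (29.4%), as did 7 of 22 glucocorticoid-inducible (31.8%) and 6 of 26 immediate early genes (23.1%), against 6.86% of all genes with a window. For PPAR targets it was 3 of 29 (10.3%) and for chaperone genes 3 of 24 (12.5%). Without day 8 1 clock gene rose and 1 fell, and with the clock components as covariates 0 of the 10 passed, as such a fit removes what clock genes share.

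Fabp7, a fatty acid carrier best known from brain, and Adamts4, a proteoglycan-cleaving protease gene, also had large falls. Fabp7 read 5.83, 5.97, 6.54, 5.90 and 6.24 with GW501516 on day 4, inside the vehicle range of 5.53 to 6.94. It read 5.51, 5.74, 6.12, 6.2 and 5.99 on day 8 against 6.74, 7.53 and 7.99, and 6.02, 6.51, 6.34, 6.32 and 5.31 on day 15 against 6.92, 7.20 and 8.41, with no overlap on either day. Fabp7 changed by -1.03 ± 0.17, while vehicle hearts were 1.11 higher on day 8 than on day 4 (adjusted p = 0.0058).

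For Adamts4 treated hearts read 6.79, 6.54, 6.69, 5.98 and 6.38 on day 4, 5.81, 6.73, 7.55, 6.72 and 5.90 on day 8, and 6.94, 6.60, 6.21, 6.33 and 5.85 on day 15. Vehicle hearts had 5.90, 6.51 and 8.08 on day 4, 7.39, 7.81 and 8.80 on day 8, and 5.60, 7.39 and 7.85 on day 15, so that the groups overlapped on each day, by 1 heart on day 8. Adamts4 changed by -0.76 ± 0.18 (adjusted p = 0.00411), while vehicle hearts were 1.26 higher on day 8 than on day 4 (adjusted p = 0.00182).

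**Figure D4:**
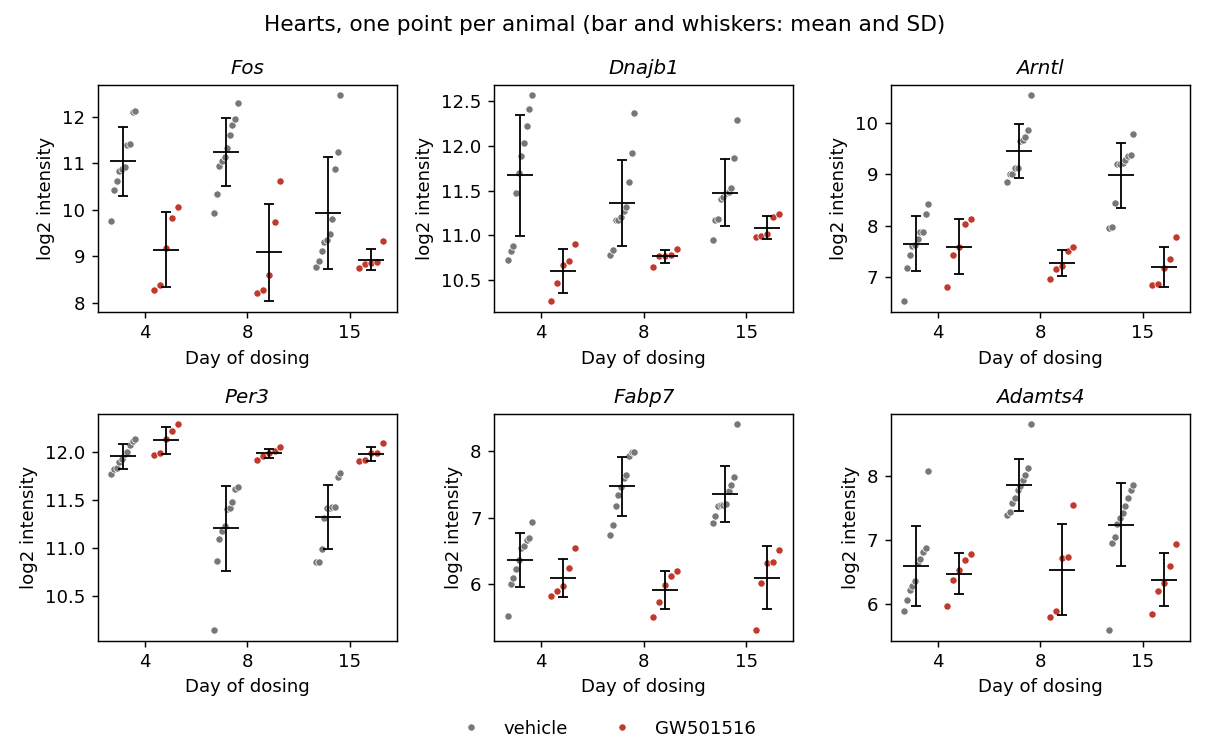
Log2 intensity (y axes) by day of dosing (x axes) for 6 genes, 1 point per heart, vehicle grey (10 a day) and GW501516 red (5 a day), with the mean and SD of each group. Fos and Dnajb1 have lower means in treated hearts on each day. By day, Fos was called on day 8 only and Dnajb1 on day 4 only. Arntl, Per3 and Fabp7 separate on days 8 and 15 and not on day 4, with the vehicle points moving between days.

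Among genes that glucocorticoids induce 10 of 25 rose and 2 fell (median 0.15), with 3 up and 0 down on day 15 and 7 up and 2 down on day 8, when 0.649% of all genes rose and 0.984% fell (2 of 25 up and 2 down at an unadjusted p under 0.05 on day 4, 0 in limma after adjustment). Zbtb16, a zinc finger repressor gene, rose by 0.86 ± 0.09 in 15 of 15 hearts, and 2 further probe sets rose by 1.0 and 1.39. Fam107a, an actin-associated stress gene, rose by 0.98 ± 0.17, the HSP90 co-chaperone gene Fkbp5 by 0.46 ± 0.14, and the metallothionein genes Mt1 (0.23 ± 0.05) and Mt2 (0.48 ± 0.14), the hypoxia factor gene Hif3a (0.51 ± 0.12) and Cebpb (0.37 ± 0.08) rose too. Sult1a1 (0.33 ± 0.08), Klf9 (0.13 ± 0.02) and Klf15, a cardiac metabolic regulator gene (0.26 ± 0.06), complete the rises, and the falls were Dusp1 and Errfi1, a feedback inhibitor of the EGF receptor (-0.46 ± 0.08). Other probe sets were uneven. Neither of the 2 others of Fkbp5 was called (-0.13 and 0.28), nor was the other of Mt1 (0.11) or of Cebpb (0.05). For Hif3a 1 of 5 others was called, for Klf9 4 of 6 and for Fam107a 2 of 2. Leaving out 1 heart ended the call of Fkbp5 in 7 and of Mt2 in 3 of 45 fits. With the clock components as covariates 1 member rose and 3 fell. Dusp1 is also on the immediate early list. The difference between day 15 and day 4 passed for 0 of the 25 in limma (3 up and 1 down at an unadjusted p under 0.05).

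**Figure D5:**
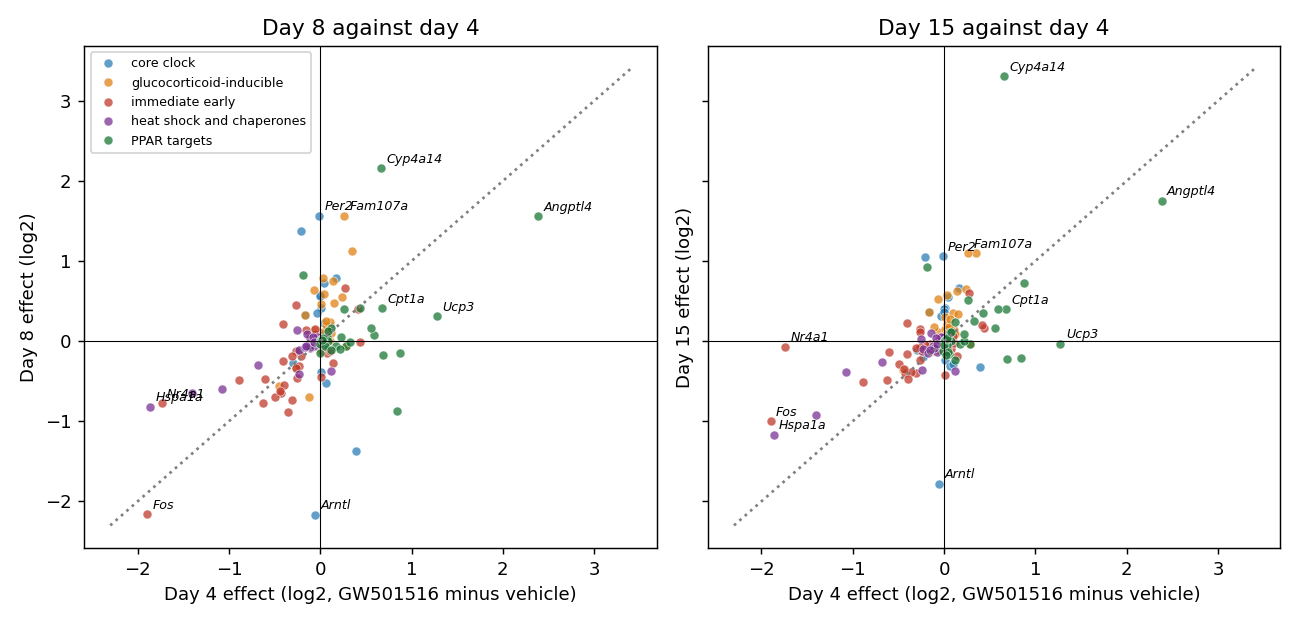
Effect on day 4 (x axes) against the effect on day 8 (left) or day 15 (right; y axes), log2, GW501516 minus vehicle, for the genes of 5 lists; the dotted line marks equal effects. Clock genes lie near 0 on day 4 and spread later (Arntl -0.05, then -2.17 and -1.78). Fos stays low (-1.90, -2.16, -1.0), with a call by day on day 8 only. Angptl4 stays high (2.38, 1.56, 1.75), with a call on each day.

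Each day by itself gave fewer calls: 23 genes on day 4 (0.126%; 0.0824% up and 0.044% down), 297 on day 8 (1.63%) and 139 on day 15 (0.764%; 0.401% up and 0.363% down). Of these 19, 250 and 132 were also called over the mean of days, and days 8 and 15 shared 91, which is 30.6% of the first and 65.5% of the second. Vehicle hearts differed between day 8 and day 4 in 143 genes (0.786%), between day 15 and day 4 in 71 (0.39%) and between day 15 and day 8 in 14 (0.077%). On the day-4 list, whose genes are named here after their values were seen, stood Angptl4 (2.38), Ucp3 (1.27), the acyl-CoA thioesterase gene Acot4 (0.77), the myeloid receptor gene Cd300a (0.69), Cpt1a (0.68), the carnitine synthesis gene Aldh9a1 (0.65), Txnip (0.56), the repressor gene Klf11 (0.53) and Plin2 (0.43) among the rises. Falls on day 4 included Nr4a1 (-1.74), Dnajb1 (-1.07), Fosl2 (-0.61) and Atf4, the factor of the integrated stress response (-0.30). Without GW501516 replicate 1, 2, 3 or 4 of day 4 the day-4 count was 6, 10, 14 and 14, and without replicate 2 of day 15 the day-15 count was 81. The day-4 calls of Angptl4, Cpt1a, Cd300a, Aldh9a1 and Txnip held without any 1 of the 15 hearts. A second Cd300a probe set stood at 0.05 over the mean of days and was not called.

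The difference between days was tested itself for day 15 minus day 4 and passed for 3 genes (0.0165%), 1 of them higher (0.0055%) and 2 lower (0.011%), with 4.96% of all genes at an unadjusted p under 0.05. Tnfrsf19, a receptor gene of the TNF receptor family, had effects of 0.18 and -0.70 (difference -0.89 ± 0.18), Gramd4 had 0.13 and -0.31 (-0.44 ± 0.08), and Atp10d, a phospholipid flippase gene, had -0.17 and 0.44 (0.60 ± 0.12). Leaving out single hearts cost Tnfrsf19 its call in 19 of 30 fits, Gramd4 in 6 and Atp10d in 7. The difference did not pass for any of the 35 PPAR targets (1 up and 9 down at an unadjusted p under 0.05), nor for any of the 20 clock genes (7 up and 2 down).

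Of 13 targets of the sterol receptor LXR 3 rose: the cholesterol exporter genes Abca1 (0.25 ± 0.05) and Abcg1 (0.30 ± 0.07) and Mylip, which degrades the LDL receptor (0.41 ± 0.07). Among 18 cholesterol synthesis genes Srebf2, their activator, fell (-0.14 ± 0.04, adjusted p = 0.0472) and no other passed. Of 32 antioxidant and detoxification genes 6 rose, with the glutathione transferase genes Gstt2 (0.54 ± 0.07), Gstt1 (0.26 ± 0.08) and Gstt3 (0.20 ± 0.06), Ephx1 (0.31 ± 0.05), Gclm (0.24 ± 0.07) and Adh1; the call of Gstt2 and that of Ephx1 held with the clock components as covariates, whereas 0 of the 3 LXR targets passed in that fit. Among 26 genes of the unfolded protein and integrated stress responses Herpud1 (0.35 ± 0.06), Ddit3 (0.21 ± 0.05) and Chac1 (0.39 ± 0.12) rose and Atf4 fell (-0.13 ± 0.03). In the fit with the clock components 0 of these 4 passed. Herpud1 stood at 0.02 there, while Ddit3 (0.20), Chac1 (0.42) and Atf4 (-0.16) kept changes near those of the main fit. The call of Chac1 ended in 28 of 45 fits without 1 heart and that of Srebf2 in 32.

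Of 24 sarcomere genes 1 passed, the titin-cap gene Tcap (0.10 ± 0.03), where 4.17% of all genes passed. Tcap was not called without day 8 and stood at -0.02 with the clock components. Of 29 calcium handling and ion channel genes Asph rose (0.08 ± 0.02). The potassium channel genes Kcnq1 (-0.20 ± 0.05) and Kcnd3 (-0.20 ± 0.05) fell in 15 of 15 hearts each. Without day 8 0 of the 29 fell, and with the clock components 0 passed. Of the 3 other Kcnd3 probe sets, which ran from -0.24 to -0.006, 0 were called. Asph reversed to -0.09 when another probe set stood for it. Among 18 genes of cardiac load Timp4 rose (0.59 ± 0.10), and Ddit4l, an mTOR inhibitor (-0.65 ± 0.10), Rcan1 and Cited4 (-0.33 ± 0.07) fell. Of these, Ddit4l alone (-0.62) still passed with the clock components, where Timp4 stood at 0.21, Cited4 at -0.16 and Rcan1 at 0.03. Without day 8 2 of them passed. In the matrix list of 27 the protease inhibitor gene Timp3 rose by 0.37 ± 0.05 and Adamts1 and Adamts4 fell. With the clock components 0 of these calls held (Timp3 0.05, Adamts1 -0.39, Adamts4 -0.32), and without day 8 1 did.

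Among 24 inflammatory genes 3 fell, the chemokine gene Ccl7 (-0.47 ± 0.13) and the NF-kB members Relb (-0.27 ± 0.06) and Bcl3 (-0.26 ± 0.06), and the adhesion gene Vcam1 rose (0.37 ± 0.08), and 0 of these 4 passed without day 8 or with the clock components. Cx3cr1, a receptor of resident macrophages, changed by -0.72 ± 0.15; the 7 macrophage markers had 0 calls in either direction and a mean of 10.59 to 11.32 in GW501516 hearts against 10.57 to 11.15 in vehicle hearts. Of 25 angiogenesis and hypoxia genes 3 rose, Flt1, a VEGF receptor (0.22 ± 0.07), among them, and Vegfc (-0.21 ± 0.06) and the Notch ligand gene Dll4 (-0.20 ± 0.06) fell. Leaving out 1 heart ended the call of Flt1 in 19, of Vegfc in 16 and of Dll4 in 14 of 45 fits, 1 gene of the list passed without day 8 and 0 with the clock components.

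The receptor genes themselves moved little. Ppard stood at -0.04 ± 0.04 (vehicle level 7.88) and Ppara at 0.10 ± 0.06, and of 23 receptors, partners and coregulators Pparg rose (0.30 ± 0.09) and Prdm16, a thermogenic coregulator gene, fell (-0.31 ± 0.06). Pparg lost its call without GW501516 replicate 1 of day 15 (0.26, adjusted p = 0.0802), whose adipocyte marker values are given above. Of 6 white adipocyte markers Fabp4 and Lipe rose; Adipoq stood at 0.59 ± 0.58, and Cidec at 0.49 ± 0.43 and at 0.04 without that heart.

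Against the other agonists, which share the vehicle hearts, GW501516 was compared directly. From rosiglitazone it differed in 8 genes (0.044%), 5 higher (0.0275%) and 3 lower (0.0165%), with 938 (5.16%) at an unadjusted p under 0.05. Lower with GW501516 were Serpina12, the adipokine vaspin (-1.14 ± 0.24), the membrane protein gene Ctxn3 (-0.87 ± 0.18) and the glutathione transferase gene Gsta3 (-0.76 ± 0.11), and higher were Cd300a (0.66 ± 0.08), Hmga2-ps1 (0.58 ± 0.09), Nr1d1 (0.50 ± 0.10) and the unnamed transcripts G630055G22Rik (0.68) and 4930533B01Rik (0.42). Angptl4 was higher by 1.04 (95% interval 0.57 to 1.51; adjusted p = 0.0598) and Cpt1a by 0.27 (0.14 to 0.39; adjusted p = 0.0705), and 0 of the 35 PPAR targets passed in limma, with 6 up and 1 down at an unadjusted p under 0.05. Arntl, at -1.33 with GW501516 and -1.71 with rosiglitazone, differed by 0.38 (0.02 to 0.74, adjusted p = 0.897 in limma). Set against vehicle, rosiglitazone hearts also differed in Fos (-1.37), Btg2 (-0.65), Dnajb1 (-0.56), Fabp7 (-1.17), Fam107a (1.28) and Mthfd1l (0.90), all called. Ccr1 (0.09), Hmga2-ps1 (0.12), Cd300a (-0.05) and Cyp4a14 (0.32) were not called with rosiglitazone. Of these, Hmga2-ps1 and Cd300a passed in the direct comparison, and Ccr1 and Cyp4a14 did not. For WY14643 against vehicle, Fos (-0.94), Btg2 (-0.39), Dnajb1 (-0.50), Fam107a (0.87), Ccr1 (0.86) and Cyp4a14 (4.03) were called. Fabp7 (-0.24), Mthfd1l (0.15), Hmga2-ps1 (0.21) and Cd300a (0.005) were not called with WY14643. Between GW501516 and rosiglitazone hearts the hepatocyte list had a median difference of -1.41, with 0 called and 9 of 10 lower at an unadjusted p under 0.05. Serpina12 lost its call there with Alb as a covariate (-0.86). The part of liver RNA in the comparison with rosiglitazone was not tested. Its count was 36 without rosiglitazone replicate 1 of day 4 and 13 without rosiglitazone replicate 3 of day 8.

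From WY14643 GW501516 differed in 552 genes (3.03%), 293 higher (1.61%) and 259 lower (1.42%). Of the PPAR targets 8 were higher and 1 lower: Angptl4 by 1.95 ± 0.24, Ucp3 by 0.69 ± 0.16, Cpt1a by 0.61 ± 0.06, Plin2 by 0.37 ± 0.06, Mgll by 0.25 ± 0.05, Txnip by 0.20 ± 0.06, the carnitine transporter gene Slc22a5 by 0.16 ± 0.04 and Fabp4 by 0.09 ± 0.02, and Cyp4a14 at -1.98 ± 0.40. The call of Txnip ended in 21 of 30 fits without 1 heart. Alb had a median of 10.60 in GW501516 hearts and 12.33 in WY14643 hearts, and Cyp4a14 medians of 5.45 and 8.32. Arntl was lower with GW501516 (-1.25 ± 0.18), as were Ccl12, a monocyte chemokine gene (-1.08), the leukocyte genes Ifitm6 (-1.06) and Fpr2 (-1.0), and Orm2 (-0.86) and Apoc2 (-0.85), plasma protein genes made mainly in liver, whose calls ended in 22 and 6 of 30 fits without 1 heart. The hepatocyte list had a median difference of -1.16 and the neutrophil list one of -0.58, with 0 called in either. The count was 299 without WY14643 replicate 4 of day 15 and 834 without its replicate 5.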

How the data were processed

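RNA of whole hearts was extracted with a Qiagen miRNeasy kit with DNase I and amplified from 100 ng of total RNA with NuGEN kits, per the labels' protocols. The values are the log2 intensities the authors deposited, made with RMA in Partek per the submitters' processing notes; versions are not given in the sources used here. RMA shrinks small differences of dim probe sets, and the number of arrays limits the precision. Of 45101 probe sets 34945 had 1 gene, 932 had several and 9160 had none; each of 18193 genes was read from its probe set of highest average intensity across the 300 arrays. Array medians of the hearts ran from 7.27 to 7.44.

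All 75 hearts in 12 groups of compound and day were fitted with limma 3.58.1 in R 4.3.3 (trended variance, 63 residual degrees of freedom, Benjamini-Hochberg adjustment over all genes, two-sided), and the mean of the 3 same-day differences was the main result. The fit was tested on simulated data. The members and gene lists were chosen with earlier results of these data known. Genes named are the 14 largest rises and 12 largest falls with at least 13 of 15 hearts on that side, members of the lists, up to 8 genes per difference, and those said to be chosen otherwise. Alternatives covered Alb, atrial and adipocyte markers or clock components as covariates, hearts or days left out, other scalings, probe set choices and weights.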

Additional observations from a re-analysis of the deposited data

Results flagged for a closer look

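In 7 of 78 groups of hearts examined gene by gene, 1 array stood far from the rest of its group; chance flags about 1 in 20 groups. In vehicle hearts of day 15, replicate 3 had the lowest Alb (7.23, the next 10.37), replicate 8 the highest Fabp7 (8.41, the next 7.62) and the lowest Adamts4 (5.60, the next 6.95). Adamts4 was also far highest in vehicle replicate 2 of day 4 (8.08, the next 6.88) and vehicle replicate 7 of day 8 (8.80, the next 8.12), and the latter heart had the lowest Per3 (10.14, the next 10.86). Among GW501516 hearts, replicate 5 of day 15 had the highest Fos (9.33, the next 8.87).

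The effect of GW501516 differed between day 15 and day 4 by the test of the difference for Atp10d (0.60), Gramd4 (-0.44) and Tnfrsf19 (-0.89).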

How the results depend on the processing

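Over the mean of days, the count of 759 became 1267 with array weights, 501 with the replicate number as a block, 343 with the clock components as covariates (132 of them among the 759; over all 759 genes 70 changed sign), 202 without day 8 and 258 without day 15. Replicate numbers did not pair hearts: over 15 pairs the correlation of deviations ran from -0.36 to 0.54, and 2 of 15 GW501516 hearts correlated best with their own number; the block gave 16, 303 and 136 calls on days 4, 8 and 15. With the clock components as covariates the counts were 45 on day 4, 89 on day 8, 10 on day 15, 0 for day 15 minus day 4, 15 against rosiglitazone and 67 against WY14643. Leaving out 1 heart gave 605 to 794 over the mean of days, 6 to 29 on day 4, 202 to 305 on day 8, 81 to 165 on day 15, 0 to 4 for day 15 minus day 4, 6 to 36 against rosiglitazone and 299 to 834 against WY14643. The day difference fell to 0 without GW501516 replicate 1 or 2 of day 4, GW501516 replicate 3 or 5 of day 15 or vehicle replicate 2 of day 15, and to 1 without GW501516 replicate 2 of day 15. Signs turned with the clock components for Per2 (-0.11), Cx3cr1 (0.016), Gpam (-0.0065), Nr1d1 (0.012), Nr1d2 (-0.014), Cry2 (-0.066), Tef (-0.0049), Hlf (-0.025), Fkbp5 (-0.048), Klf15 (-0.055), Cebpb (-0.020), Rcan1 (0.030), Ppara (-0.013), Tcap (-0.022) and Flt1 (-0.12). They also turned for Asph with another probe set (-0.088), for Cidec with adipocyte markers as a covariate (-0.083), and without day 4 for Pdk4 (-0.046) and Acot4 (-0.095). The cause was not tested. Counts stayed within 1.5 times of 759 with Alb (802), atrial (754) or adipocyte markers (792) as a covariate, without the Alb-rich hearts (561), without day 4 (749; chosen after seeing the data, as were the fit without day 15 and that with an Alb slope for each compound, 652), with GW501516 and vehicle hearts alone (1110) and with arrays centred on their median (750, 303 of them higher).

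Vehicle hearts of day 8 differed from those of day 4 in each called clock gene but Cry1, and in Zbtb16 and Cebpb of the called glucocorticoid-inducible genes. The hour of collection is not given in the sources used here, and hour and treatment cannot be told apart. The brightest genes lie near the top of the scale.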
